A study of Mus musculus with 2 samples.

Results

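Ubiquitin is attached to proteins by ligases and removed by deubiquitinases, and both steps were followed here through genes of 4 families: the deubiquitinases with USP, OTU and UCH folds and the TRIM ligases. The genes were taken by symbol, as protein-coding mouse genes named Usp, Otu, Uch or Trim followed by a number or letter, without 3 symbols that the rule leaves out. This gave 140 genes, 55 of the USP, 12 of the OTU, 4 of the UCH and 69 of the TRIM family. Reads across their annotated introns were found for 90 genes, and the 77 with at least 20 reads over both libraries are called measured (38 USP, 8 OTU, 1 UCH and 30 TRIM), out of 8359 measured genes in all. The symbol rule also admits Usp6nl, which encodes a GTPase-activating protein for Rab proteins, and Uspl1, which encodes a SUMO protease.

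Macrophages were given interleukin 10 (IL-10), 100 ng/ml over 4 h, or were left untreated, and RNA of each group was sequenced as 1 library. Both groups came from male C57BL/6JJcl mice injected in the peritoneum with thioglycolate, an irritant, and consisted of the exudate cells that stuck to the dish. The labels do not say how many mice contributed. Without replicates no difference was tested, and every interval below covers counting error alone.

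Deubiquitinases trim or remove ubiquitin chains and so oppose ligases that mark proteins for the proteasome or build signalling platforms. TRIM proteins carry, in most cases, a RING domain that makes them ligases, followed by B-box and coiled-coil domains, and many act in antiviral defence. In macrophages both sets of enzymes tune the receptor pathways to NF-kB and interferon, while IL-10 signals through Stat3 and restrains inflammatory gene expression.

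The IL-10 library held 3998954 junction reads on 109870 junctions and the untreated library 4035991 on 110102. Reads on introns that belong to 1 gene numbered 3837953 and 3866130, of which the 140 genes held 0.353% of the IL-10 reads and 0.333% of the untreated reads. Macrophage markers were abundant, with 4648 and 4847 reads for Adgre1 and 6737 and 7892 for Csf1r in the IL-10 and untreated libraries. Their 8 measured genes of 10 summed to 59843 reads with IL-10 against 76749 without, a gap carried mostly by Lyz2 at 31849 and 45047. Of these 8 macrophage genes 6 had a ratio below 1, 5 of them with an interval wholly below 1. The median log2 ratio of the 8 was -0.21. The other 2, Itgam (521 and 397) and Fcgr1 (405 and 336), were higher with IL-10, with intervals wholly above 1. Cd14 was listed at 0 junction reads. Of other cell types, 4 of 10 neutrophil markers were measured (951 and 882 reads in all), 2 of 7 B cell markers (484 and 539), 2 of 7 mast cell and eosinophil markers (96 and 59), 6 of 9 fibroblast and mesothelial markers (1379 and 1230) and 0 of 8 T and NK cell markers. S100a8, S100a9, Elane, Mpo, Cd79a, Pax5, Cd3g, Cd3d, Cd8a, Epx, Prg2 and Lum were listed at 0 in both libraries. A listed 0 does not show absence, since genes that every cell uses, such as Rps27a and Ubb, were listed at 0 too. The mast cell and eosinophil sum was the one that differed most in proportion, through Siglecf at 86 reads with IL-10 against 48 untreated. Of the 6 measured fibroblast and mesothelial markers 3 had an interval wholly above 1 and 1 wholly below, with a median log2 ratio of 0.37. The part of other cells in the ratios below was not tested, and in RNA from a mixed culture fewer cells of a type and less RNA per cell cannot be told apart.

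Most of the deubiquitinase and TRIM genes differed little between the IL-10 and untreated libraries. The median log2 ratio of IL-10 over untreated was -0.02 over the 77 measured genes and 0.00 over all measured genes, and 60 of the 77 lay within 1.5-fold of equality (77.9%, against 85.3% of all measured genes). A gene was called when its library-scaled reads differed at least 2-fold and the 95% interval of the ratio excluded 1. By that rule 2 genes were higher with IL-10 (2.6%, against 1.75% of all measured genes), Trim34b and Usp53. The 4 lower genes, Trim45, Trim34a, Trim16 and Usp37, made up 5.19% of those measured, against 1.5% of all. Every one of the 6 had fewer than 100 reads over both libraries. In that depth range 6 of 28 members were called (21.4%), against 9.04% of all genes as thinly read. None was called among the 33 members with at least 100 but under 500 reads, where 0.973% of all genes were, nor among the 16 with at least 500 reads, where 0.545% were.

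**Figure D1:**
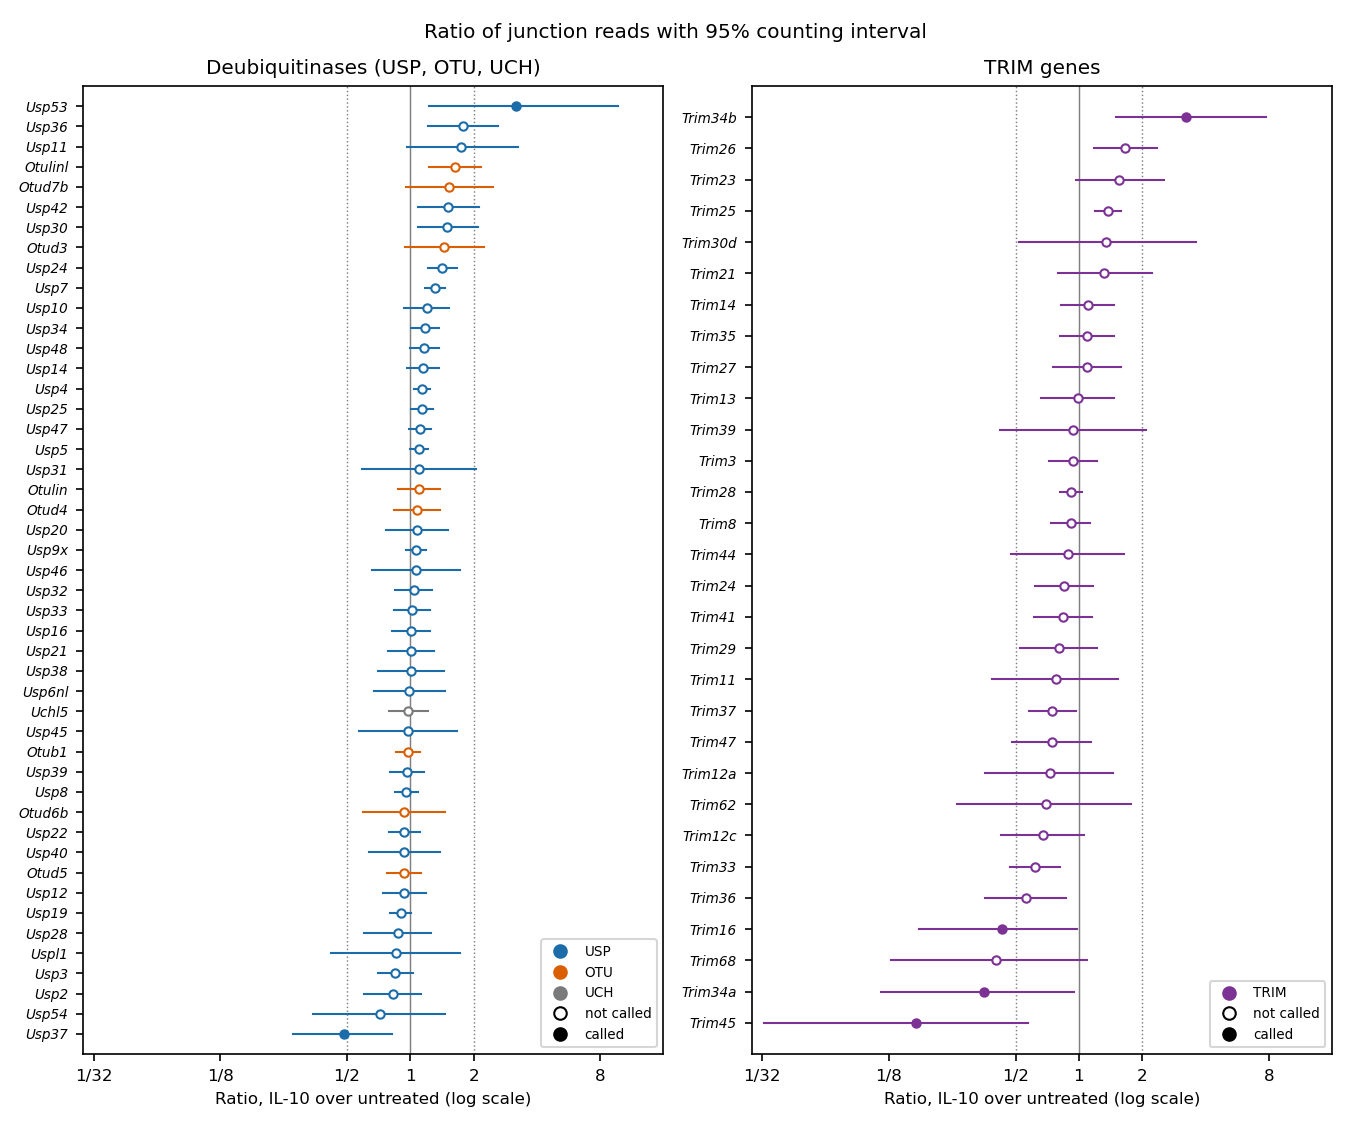
Ratio of library-scaled junction reads, IL-10 over untreated, for the 77 measured genes (log axis), with deubiquitinases on the left and TRIM genes on the right. Points are ratios, lines are 95% counting intervals, filled points are the 6 called genes and dotted lines mark 2-fold. Most points cluster about 1 and 21 of the 30 TRIM genes lie left of it (against 4184 of 8359 measured genes in all).

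The families leaned in different directions, although by little. Of all 8359 measured genes 4175 had a ratio above 1 and 4184 one below. Among USP genes 24 of 38 had a ratio above 1 and the median log2 ratio was 0.07. Of OTU genes 5 of 8 lay above 1, with a median of 0.12. Of TRIM genes 21 of 30 lay below 1, with a median of -0.20. Reads summed over the measured USP genes came to 9618 with IL-10 and 8902 without (ratio 1.09), and over the TRIM genes to 2446 and 2543 (ratio 0.969). Trim25, which was higher with IL-10, alone held 488 of the 2446 and 357 of the 2543 TRIM reads. Whether the families differ from each other was not tested.

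**Figure D2:**
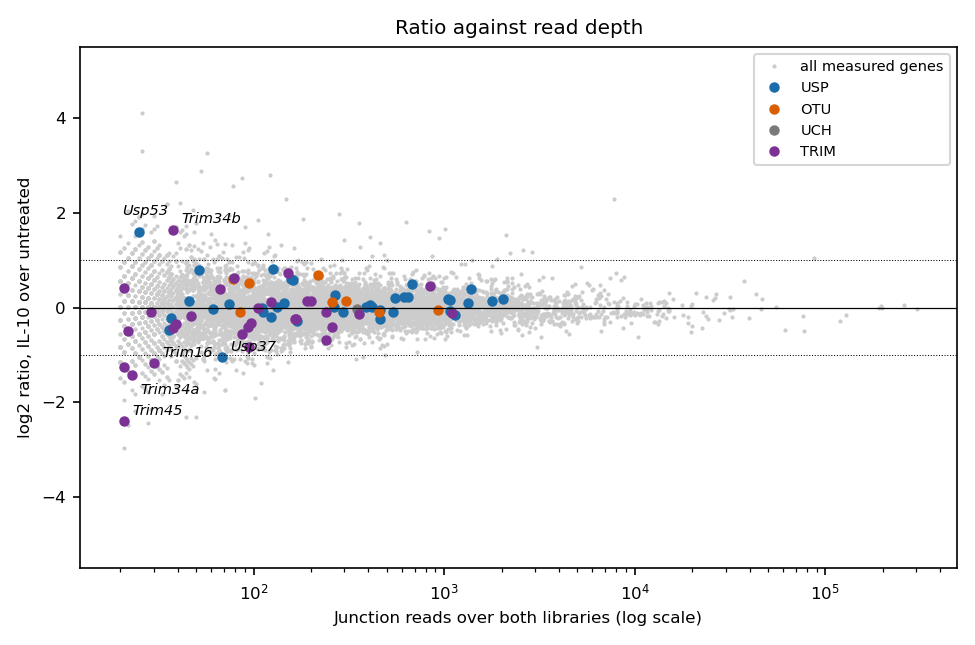
Log2 ratio of IL-10 over untreated against the reads of each gene over both libraries (log axis), with all 8359 measured genes in grey and the family members in colour. The 6 named genes are those called; all have fewer than 100 reads, in the part of the plot where the grey cloud is widest.

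The intervals of 14 members lay wholly above 1 (18.2%, against 12.9% of all measured genes) and those of 7 wholly below 1 (9.09%, against 13.1%). USP genes made up 10 of the 14, with 1 OTU and 3 TRIM genes. TRIM genes made up 6 of the 7, with 1 USP gene. Among the 16 most deeply read members, with at least 500 reads, 7 had an interval above 1 (43.8%, against 23.3% of all genes of that depth) and 0 had one below 1 (against 22.3%). These 7 were Usp4, Usp5, Usp7, Usp24, Usp25, Usp34 and Trim25, with ratios between 1.10 and 1.42. With 1 library per group, a difference of this size cannot be told apart from the variation between cultures.

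Trim25 had the highest level of any TRIM gene. It encodes the ligase that ubiquitinates the RNA sensor RIG-I, and interferon induces it. Its level, in reads per 1000000 (RPM) on named junctions and per intron of its best-covered transcript, was 15.9 with IL-10 and 11.5 without. The counts were 488 and 357 reads (ratio 1.38, 95% interval 1.20 to 1.58), and the IL-10 library held more reads at each of its 8 introns. Intron by intron from the 5′ end, the IL-10 library had 37, 42, 31, 43, 44, 36, 114 and 141 reads, against 26, 28, 22, 23, 33, 25, 77 and 123 in the untreated library. The higher count was thus spread along the transcript.

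Of 6 deubiquitinases of the proteasome, the endosome and free chains 5 were measured and 0 were called. Usp5, which takes apart unanchored ubiquitin chains, had 936 and 857 reads in the IL-10 and untreated libraries (ratio 1.10, interval 1.002 to 1.208). Usp8, an endosomal enzyme that spares receptors from degradation, had 522 and 548 reads (ratio 0.959, interval 0.850 to 1.08). Usp9x, a large enzyme with many substrates, had 682 and 646 reads (ratio 1.06). The proteasome-bound Usp14 and Uchl5 had ratios of 1.15 and 0.979, and Uchl5 was the 1 measured gene of the UCH family. All 5 measured genes lay within 1.5-fold of equality.

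Of the enzymes of chromatin, DNA repair and the cell cycle, 8 of 10 measured genes lay within 1.5-fold of equality, and the intervals of Usp7 and Usp37 excluded 1. Usp7, which stabilises both p53 and its ligase Mdm2, had 784 reads with IL-10 against 601 untreated (ratio 1.31, interval 1.18 to 1.46), with 25 of its 31 better-read introns on the same side. An intron counts as better read here with at least 5 reads over both libraries. Usp37, which stabilises cyclin A at entry into S phase, had 22 reads with IL-10 against 46 untreated (ratio 0.482, interval 0.276 to 0.817). Its reads lay on mm9 chromosome 1 between 74486053 and 74552233, on the minus strand, and all 5 better-read introns had fewer reads with IL-10. Of 15 genes in the list 10 were measured, with 0 called higher, 1 called lower and a median log2 ratio of 0.01. Usp11 stood at 33 and 19 reads (ratio 1.75, interval 0.966 to 3.26), an interval that includes 1. Usp3 and Usp22, which remove ubiquitin from histones, had ratios of 0.850 and 0.938, and Usp47 and Usp48 of 1.11 and 1.17. The proliferation markers gave no call, with 6 of 12 measured and 329 reads with IL-10 against 314 without. The interval of 1 of these 6 lay above 1.

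Among the deubiquitinases of innate immune signalling 13 of 16 were measured and 0 were called, with a median log2 ratio of 0.11. Usp4, which acts on signalling proteins such as TRAF6 and TAK1, was the most read gene of all the families, with 1086 reads in the IL-10 library, against 962 in the untreated one (ratio 1.14, interval 1.04 to 1.24). Usp25, which acts on TRAF proteins, had 554 and 492 reads (ratio 1.13, interval 1.003 to 1.283). Both lower bounds lay close to 1. Usp19, an enzyme that exists in a form anchored in the endoplasmic reticulum, had 541 and 605 reads (ratio 0.901, interval 0.801 to 1.01). Usp10, Usp20, Usp21, Usp31 and Usp38 had ratios between 1.01 and 1.20, and each interval included 1.

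Several USP genes with fewer than 200 reads were about 1.5-fold or more higher with IL-10 without reaching the 2-fold rule. Usp36, a nucleolar deubiquitinase, had 81 reads with IL-10 against 46 untreated (ratio 1.77, interval 1.22 to 2.61), and 8 of its 9 better-read introns lay on the same side of equality after scaling. Usp42, which acts on p53 and histone H2B, had 95 and 63 reads (ratio 1.52, interval 1.09 to 2.12). Usp30, an enzyme of the outer mitochondrial membrane that opposes the removal of mitochondria, had 97 and 65 reads (ratio 1.503, interval 1.09 to 2.09). The introns of Usp42 and Usp30 were less uniform, with 6 of 10 and 7 of 10 on the side of the whole gene. The large enzyme Usp24 had 399 reads with IL-10 against 283 untreated (ratio 1.42, interval 1.22 to 1.66), with 37 of 47 introns on that side. Usp34, an enzyme of Wnt signalling, had 349 and 299 reads (ratio 1.18, interval 1.01 to 1.38).

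Usp53 was 1 of the 2 genes called higher, and few reads stood behind it. It encodes a USP-fold protein of tight junctions that was long classed as inactive. The IL-10 library held 19 reads and the untreated library 6 (ratio 3.19, interval 1.23 to 9.76), on mm9 chromosome 3 between 122650356 and 122687199, on the minus strand. At the 2 introns with at least 5 reads the counts were 7 and 5 with IL-10, against 1 and 0 without. Its relative Usp54 had 15 and 21 reads (ratio 0.720, interval 0.345 to 1.46). Usp39, a splicing factor with an inactive USP fold, had 224 and 234 reads (ratio 0.964), and Uspl1 had 17 and 20. Usp53 was thus the one gene of these 4 with an interval off 1.

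None of the 8 measured OTU genes was called, and the interval of 1, Otulinl, excluded 1. Otub1, which blocks the conjugating enzyme Ubc13, had the highest level of all the members, at 19.8 RPM per intron with IL-10 and 20.3 without (455 and 471 reads, ratio 0.973, interval 0.854 to 1.11). Otulin, which cleaves linear chains built by the LUBAC ligase, had 159 and 146 reads (ratio 1.10, interval 0.871 to 1.38). Otud5, which removes ubiquitin from TRAF3, had 220 and 237 reads (ratio 0.935). Otud3, Otud4, Otud6b and Otud7b had ratios of 1.45, 1.08, 0.939 and 1.53, with intervals that include 1. None of these 7 stood apart from equality by more than its counting error.

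Otulinl, the inactive relative of Otulin that sits at the endoplasmic reticulum, was the OTU gene with an interval above 1. It had 134 reads with IL-10 against 83 untreated (ratio 1.63, interval 1.23 to 2.17), and all 7 of its better-read introns had more reads with IL-10. Part of the difference came from 2 introns read in the IL-10 library only. One, of 101 bases at mm9 chromosome 15 from 27594191 to 27594291, had 11 reads with IL-10 against 0 untreated. The other, the first intron of 16583 bases, had 11 and 0 at its annotated position and 7 and 0 at a position 4 bases away that the annotation lacks. Leaving out both annotated introns left 112 and 83 reads (ratio 1.36, interval 1.01 to 1.83). Why neither placement was listed in the untreated library was not tested.

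**Figure D3:**
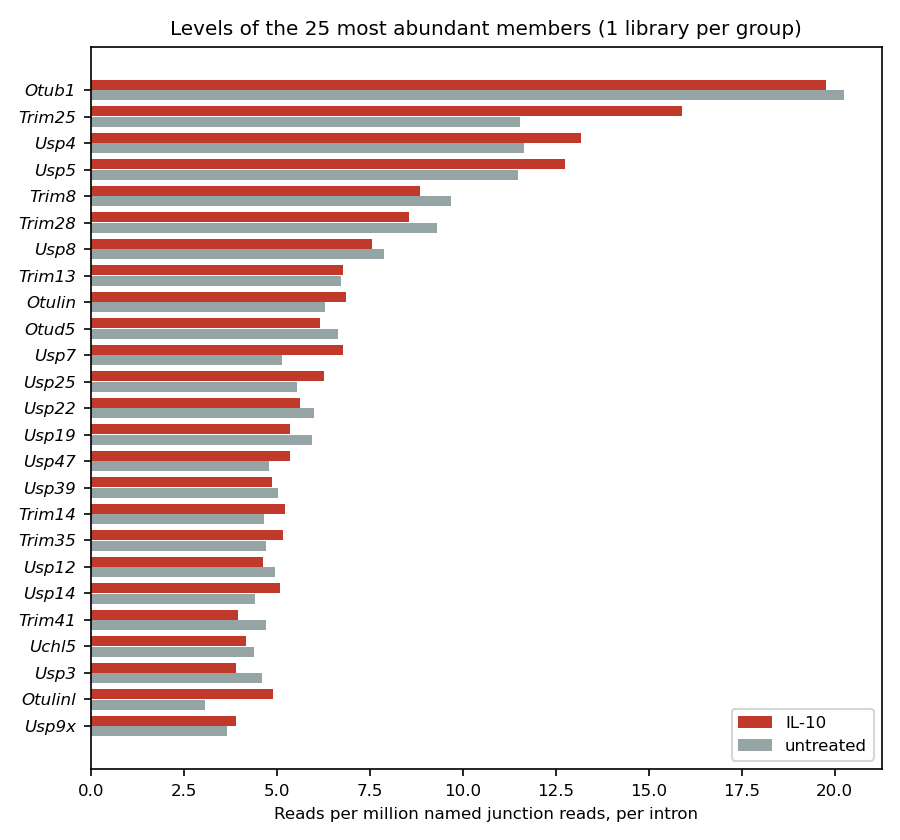
Levels of the 25 members with the highest level, in RPM of named junction reads per intron of the transcript with the most reads, with IL-10 in red above untreated in grey, 1 library each. Otub1 and Trim25 lead; the red and grey bars of Trim25 differ by more than those of Otub1.

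The levels of the other leading genes were also close between libraries. Usp4 stood at 13.2 RPM per intron with IL-10 and 11.7 without, and Usp5 at 12.7 and 11.5. Trim8, a ligase of cytokine signalling, stood at 8.86 and 9.67, and Trim28 at 8.57 and 9.31. Otulin stood at 6.86 and 6.29, Trim13 at 6.77 and 6.73 and Otud5 at 6.17 and 6.64. In the IL-10 library the 4 highest were Otub1, Trim25, Usp4 and Usp5, in that order, whereas in the untreated library Usp4, Trim25 and Usp5 followed Otub1 at nearly the same level. The median member had 1.72 RPM per intron with IL-10 and 1.75 without.

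Of the transcriptional TRIM regulators 0 were called. Trim33, a co-repressor that also ubiquitinates Smad4 in transforming growth factor beta signalling, had 91 reads with IL-10 against 148 untreated (ratio 0.619, interval 0.472 to 0.810). Of its 16 better-read introns 11 had fewer reads with IL-10. A single intron, from 103135731 to 103141321 on mm9 chromosome 3, had 0 reads with IL-10 against 16 untreated, and leaving it out gave 91 and 132 reads (ratio 0.694, interval 0.526 to 0.914). Trim28, the co-repressor of KRAB zinc finger proteins, had 526 and 576 reads (ratio 0.920, interval 0.816 to 1.04). Trim24, a co-regulator of nuclear receptors, had 76 and 90 reads (ratio 0.851). All 3 measured genes of this list of 4 had a ratio below 1, and the interval of Trim33 alone excluded 1.

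The TRIM genes called lower were thinly read. Trim45, whose human protein restrains NF-kB signalling, had 3 reads with IL-10 against 18 untreated (ratio 0.168, interval 0.0317 to 0.575), on mm9 chromosome 3 between 100727323 and 100735353, on the plus strand. Its 2 better-read introns had 0 and 1 reads with IL-10, against 5 and 5 without. Trim16, a protein without a RING domain that takes part in the autophagy of damaged endomembranes, had 9 and 21 reads (ratio 0.432, interval 0.174 to 0.983). Its 3 better-read introns had 2, 2 and 2 reads with IL-10, against 3, 4 and 6 without. Outside the call, Trim68 had 6 and 15 reads (ratio 0.403) with an interval, 0.128 to 1.10, that includes 1. Trim36, which binds microtubules, had 34 and 61 reads (ratio 0.562, interval 0.358 to 0.868), and 6 of its 7 better-read introns had fewer reads with IL-10.

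Trim37, a ligase that limits centrosome duplication, had 110 reads with IL-10 against 148 untreated (ratio 0.749, interval 0.580 to 0.965). That interval rested on 1 intron, from 86980186 to 86980941 on mm9 chromosome 11, with 0 reads with IL-10 against 11 untreated. Leaving it out gave 110 and 137 reads (ratio 0.809), with an interval of 0.624 to 1.05 that includes 1. The reverse held for Usp19, where an intron from 108395815 to 108395891 on mm9 chromosome 9 had 11 reads with IL-10 against 0 untreated. Leaving that one out gave 530 and 605 reads (ratio 0.883), with an interval of 0.784 to 0.993 that excludes 1. Over all the members, 5 of the 597 introns with at least 10 reads had 0 in 1 library. All 5 lie in Otulinl, Trim33, Trim37 and Usp19. How often this occurs among introns of all genes was not counted. The interval excluded the ratio of the whole gene at 26 of the 597 (4.36%), against 6.78% of 60529 such introns of all measured genes.

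Of 13 TRIM regulators of cytokine, NF-kB and Stat signalling 10 were measured, with a median log2 ratio of -0.11. Of these 10, 8 lay below 1 (against 4184 of 8359 measured genes in all), 1 of them called (Trim45). Trim8, whose level is given above, had 170 and 187 reads (ratio 0.916, interval 0.740 to 1.13). Trim13 had 52 and 53 reads and Trim27 64 and 59. These 3 lay close to equality. Trim23, which also carries a GTPase domain, was on the higher side at 48 and 31 reads (ratio 1.56), with an interval of 0.973 to 2.54 that includes 1. Of TRIM genes without a RING domain 4 of 5 were measured, Trim14 at 104 and 95 reads, Trim29 at 43 and 54, Trim44 at 22 and 25 and Trim16 as above. The 1 measured gene with an NHL domain, Trim3, had 115 and 124 reads, and of 4 muscle TRIM genes 0 were measured.

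Interferon-inducible and antiviral TRIM genes had a median log2 ratio of 0.39 over 9 measured of 14. Trim26, a ligase of antiviral signalling, had 94 reads with IL-10 against 57 untreated (ratio 1.66, interval 1.18 to 2.35), with 5 of 6 better-read introns on that side. Trim21, the cytosolic antibody receptor, had 38 and 29 reads (ratio 1.32, interval 0.793 to 2.22). Trim12a (ratio 0.733) and Trim12c (ratio 0.678) lay below 1, with intervals that include 1. The list held 1 gene called higher and 1 called lower, Trim34b and Trim34a, whose reads may be divided wrongly between near copies. Of 20 interferon-stimulated genes outside the families 11 were measured, 0 were called, and the median log2 ratio was -0.01, with the regulator Irf7 at 263 reads with IL-10 against 321 untreated (ratio 0.825, interval 0.699 to 0.975).

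Trim34a and Trim34b lie in the same cluster on chromosome 7 and are near copies, so that reads can be assigned to the wrong one. Trim34a had 6 reads with IL-10 against 17 untreated (ratio 0.356, interval 0.115 to 0.945), on mm9 chromosome 7 between 111396665 and 111408991. Trim34b had 29 and 9 reads (ratio 3.25, interval 1.496 to 7.795), between 111478482 and 111484161, both genes on the plus strand. The joined exon ends are shown for 4 of their corresponding introns, as 25 bases on each side of the splice. They come from GENCODE M21 transcripts (GRCm38), are written 5′ to 3′ on the genes' strand, and are shown because they carry 2 of the 6 calls, and capitals mark the bases that differ within a pair.
Trim34a intron 2: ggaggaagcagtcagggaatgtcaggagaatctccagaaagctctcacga
Trim34b intron 1: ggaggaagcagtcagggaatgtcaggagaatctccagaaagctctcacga
Trim34a intron 3: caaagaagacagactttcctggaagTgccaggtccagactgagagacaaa
Trim34b intron 2: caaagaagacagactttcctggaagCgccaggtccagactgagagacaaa
Trim34a intron 4: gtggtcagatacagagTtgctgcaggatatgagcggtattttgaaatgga
Trim34b intron 3: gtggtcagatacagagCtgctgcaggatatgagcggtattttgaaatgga
Trim34a intron 6: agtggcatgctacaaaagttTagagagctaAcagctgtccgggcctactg
Trim34b intron 5: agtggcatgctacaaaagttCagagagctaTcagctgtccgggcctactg
The first pair is identical, so a read within these 50 bases fits both genes. Trim34a had 0 reads with IL-10 against 5 untreated at this junction, and Trim34b had 7 and 1. At the second pair, which differs by 1 base, Trim34a had 0 and 6 reads and Trim34b had 4 and 1. At a second identical pair, intron 5 of Trim34a and intron 4 of Trim34b, the genes had more reads with IL-10 alike, 2 and 0 in Trim34a and 5 and 0 in Trim34b. At the third printed pair Trim34a had 1 and 1 and Trim34b 10 and 7, and at the fourth Trim34a had 3 and 5 and Trim34b 3 and 0. Over all 6 corresponding introns, 48 to 50 of the 50 bases were identical. Summed over both genes the IL-10 library had 35 reads and the untreated library 26 (ratio 1.36), with an interval of 0.793 to 2.35 that includes 1. The pair as a unit is not called, each call is uncertain as a statement on a single gene, and how the aligner divided the reads was not tested.

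**Figure D4:**
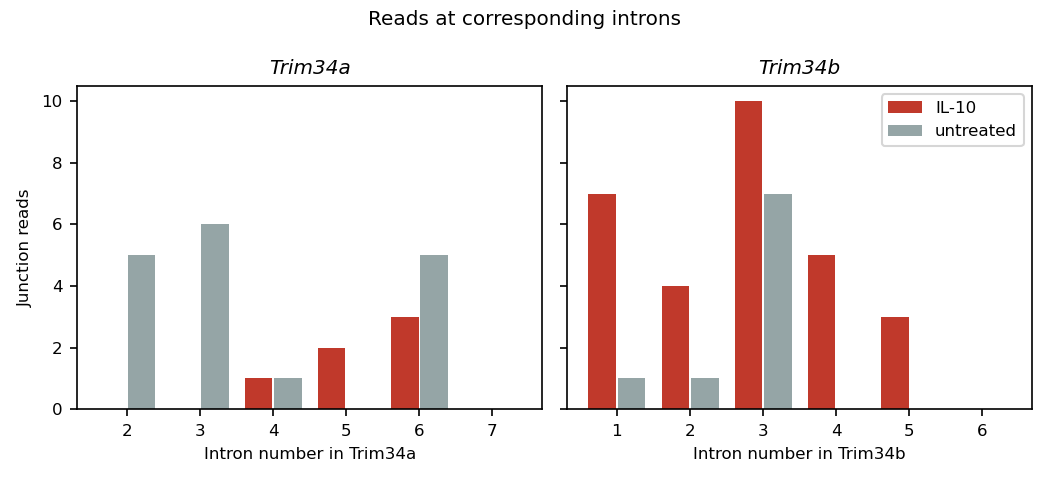
Junction reads at the 6 corresponding introns of Trim34a (left) and Trim34b (right), with IL-10 in red beside untreated in grey, 1 library each. The untreated bars are the taller ones at introns 2, 3 and 6 of Trim34a. The IL-10 bars are the taller ones at introns 1 to 5 of Trim34b and at intron 5 of Trim34a. Introns 2 and 3 of Trim34a match introns 1 and 2 of Trim34b.

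The cluster's other measured genes were also sparsely read. Trim12a had 16 reads with IL-10 against 22 untreated, and Trim12c had 35 and 52. Their sum of 51 and 74 reads gave a ratio of 0.694, with an interval of 0.476 to 1.005 that just includes 1. Trim30d had 12 and 9 reads. These genes belong to a rodent expansion related to Trim5, and 5 of 9 cluster genes were measured, with a median log2 ratio of -0.44 and 98 reads in all with IL-10 against 109 untreated. Of 1048 junctions with reads on the best-covered transcripts, the 50-base sequence of 10 also occurred in a transcript of another gene. All 10 lie in Trim12a, Trim12c, Trim34a and Trim34b. They carried 35 reads in each library, and the other measured genes had no such junction among the 1048. Near matches and junctions outside these transcripts were not counted.

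Sequence just upstream of the genes was searched for the motifs of Stat factors, interferon and NF-kB. RefSeq promoters (GRCm38.p6, 250 bases before to 50 after the start) were found for 57 of the 77 measured genes, giving 63 promoters. The interferon element, searched as a pair of GAAA strings with 2 bases between them, was in 6 of the 63 (9.52%) on either strand, against 3.44% of 32851 promoters of all genes. The 6 belong to Trim12a, Trim12c, Trim21, Trim26, Trim30d and Trim34a, and the first 2 with Trim30d and Trim34a are neighbours in the chromosome 7 cluster. Trim34b had no match in its window. The Stat motif TTCNNNGAA was in 1 (1.59%, against 8.3%), and the NF-kB motif, GGG and CC with 5 bases between them, in 42 (66.7%, against 50.8%). A match is a string of letters and was not shown to be bound. The promoters of Trim26, where 2 overlapping interferon elements start 160 and 154 bases before the start site, and of Trim45, which carries the Stat motif, are given with the motif in capitals, 5′ to 3′ on the plus strand.
Trim26, chr17:36836896-36837195: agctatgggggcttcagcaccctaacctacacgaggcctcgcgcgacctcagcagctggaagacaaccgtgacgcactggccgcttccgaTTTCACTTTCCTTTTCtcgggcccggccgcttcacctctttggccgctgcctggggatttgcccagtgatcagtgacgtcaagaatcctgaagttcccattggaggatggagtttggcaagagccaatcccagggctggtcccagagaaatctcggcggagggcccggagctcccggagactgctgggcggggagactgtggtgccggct
Trim45, chr3:100922243-100922542: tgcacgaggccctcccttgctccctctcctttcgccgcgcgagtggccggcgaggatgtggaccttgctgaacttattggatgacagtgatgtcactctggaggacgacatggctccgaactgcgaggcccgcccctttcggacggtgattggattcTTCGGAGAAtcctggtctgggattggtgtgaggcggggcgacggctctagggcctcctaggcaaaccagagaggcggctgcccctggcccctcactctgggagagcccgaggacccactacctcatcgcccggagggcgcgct
The elements of Trim26 read in the printed strand as their reverse complements. The ratio of Trim26 was 1.66 and that of Trim45 0.168, so the 2 printed promoters belong to genes on opposite sides.

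The remaining members could not be compared. No read on a matched intron was listed for 50 of the 140 genes, among them the testis-linked Usp26 and Usp29, the Usp17-like genes, the muscle genes Trim54, Trim55 and Trim63, and Otud1, Otud6a and Uchl4, which have no annotated intron. Genes with 1 annotated intron, such as Usp27x, Usp51 and Trim52, were at 0 by rule, since a match needs at least 2 introns. A further 13 genes had 1 to 19 reads. Just below the threshold stood Trim2 with 9 and 8 reads in the IL-10 and untreated libraries, Usp1 with 8 and 8, Otub2 with 5 and 11, Trim65 with 6 and 9, Uchl3 with 5 and 8 and Trim56 with 2 and 8. Just above it stood Trim30d, Trim45, Trim68, Trim34a and Usp53, given above, and Trim62 with 9 and 13 reads. Of the 6 called genes 3 thus lay within 5 reads of the threshold.

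Within the transcripts, the use of alternative junctions was compared as shares of a donor or acceptor. At 56 donors or acceptors of members with more than 1 junction and at least 20 reads in each library, 116 junction shares were compared. A junction with both ends among these sites counts at each end. Of these shares 0 differed by 20 percentage points with intervals that did not overlap. At such sites of all measured genes 0.118% of 19525 shares, counted alike, did so, too few to set 0 of 116 apart. The largest difference was at an acceptor of Usp47, where one junction took 18 of 26 reads with IL-10 and 26 of 32 without, 69.2% (exact binomial interval 48.2 to 85.7%) and 81.3% (63.6 to 92.8%). The next, in Usp4, was 10.7 percentage points. Unannotated junctions inside members numbered 119 in 52 genes, with 112 reads with IL-10 against 96 untreated, and 80 of them had 1 read. The one with the most reads lay in Trim28, with 7 and 3.

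Among 85 measured genes of other lists of the ubiquitin system 2 were called (2.35%), close to the 3.24% of all measured genes called in either direction. Of 22 deubiquitinases of other families 20 were measured and 0 were called, with a median log2 ratio of 0.00, among them the NF-kB inhibitors Cyld (217 and 200 reads in the IL-10 and untreated libraries) and Tnfaip3 (235 and 248). Mysm1, a histone deubiquitinase, had 34 and 58 reads (ratio 0.591, interval 0.375 to 0.917). Of 12 ubiquitin genes and E1 enzymes 10 were measured and of 30 E2 enzymes 19, with 0 called. Of 7 SUMO and NEDD8 proteases 6 were measured, likewise with 0 called. Of 34 other ligases of immune signalling 30 were measured, 1 called higher and 1 lower. Mid1, a ligase of the TRIM structure that the symbol rule does not take, had 29 reads with IL-10 against 6 untreated (ratio 4.87, interval 1.99 to 14.3). Rnf138, the lower one, had 10 and 35 (ratio 0.288). Huwe1, a giant ligase and the most read of this list, had 1341 and 992 reads (ratio 1.36).

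**Figure D5:**
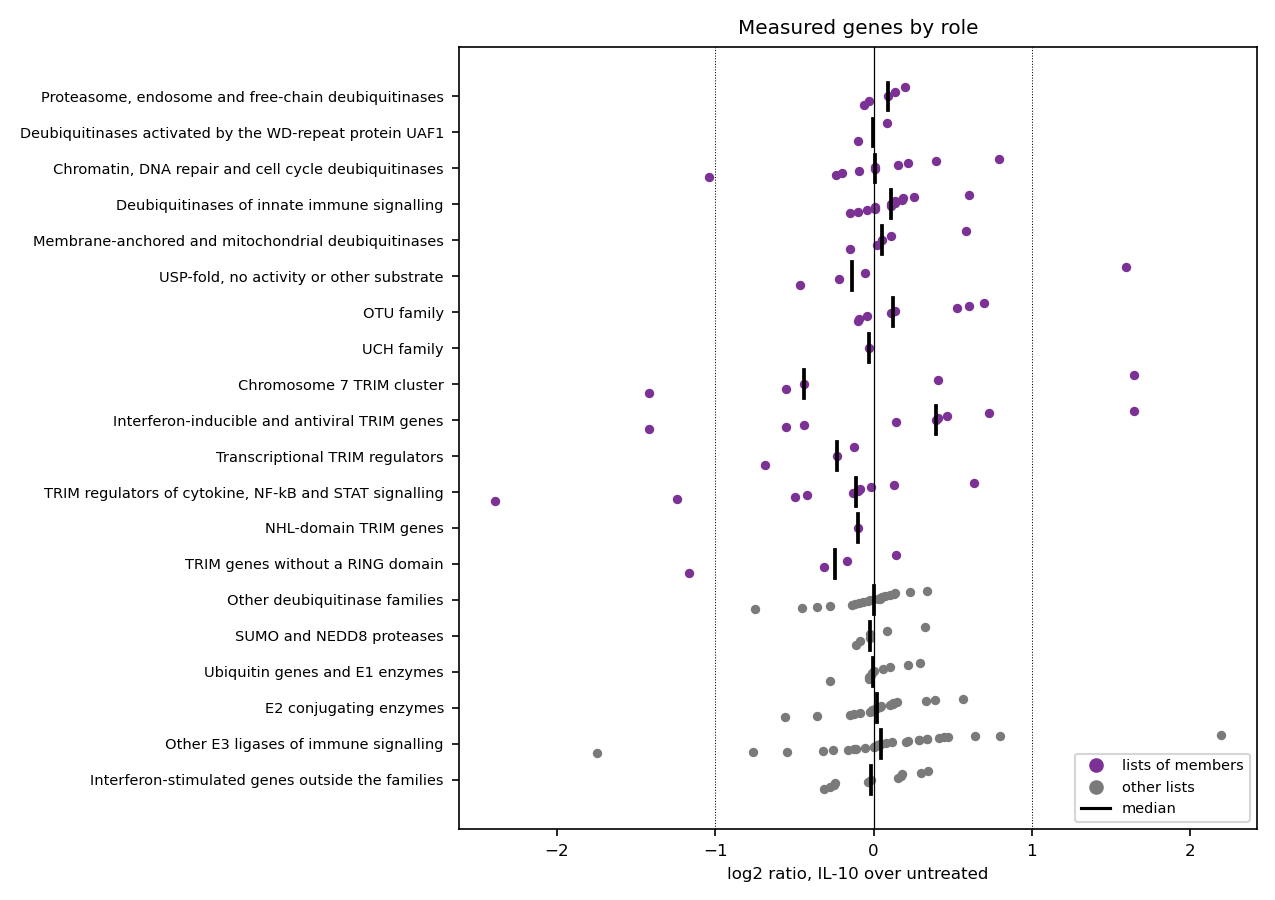
Log2 ratio of IL-10 over untreated for each measured gene, grouped by role, with lists of members in purple, other lists in grey and the median of each list as a black bar. Most medians lie near 0. The chromosome 7 cluster and the interferon-inducible TRIM genes reach past 2-fold (dotted lines) on both sides through the same near copies, Trim34a and Trim34b. The other E3 ligases do so through Mid1 and Rnf138.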

How the data were processed

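The libraries were aligned to mm9 with TopHat and processed with Cufflinks, per the submitters' processing notes, which give no versions. The deposited values are, per the file headers, counts of reads placed across each splice junction, 1 list per library and not scaled. Read length and strand setting are not given in the sources used here. Because the protocol fields of both samples describe the treatment, sample titles set the groups.

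Junctions were named from GENCODE M21, which is on GRCm38, by chromosome, strand and exact intron length, where at least 2 introns of a gene shared 1 offset of at most 20 Mb. Of 131057 junctions 106738 matched (81.4%, with 98.2% of reads), 105199 of them to 1 gene. Gene positions are mm9 positions of the outermost matched introns. A gene's count was summed over introns of that gene alone and scaled by the library's sum of such reads. Ratios carry exact conditional binomial (Clopper-Pearson) 95% intervals, and log2 ratios a pseudocount of 0.5 reads. PCR copies were not removed by molecular identifiers, so intervals and floors (3 reads) cover counting error only. Calls need 20 reads, a 2-fold ratio in either direction and an interval off 1. Junction shares were compared at 20 reads and 20 points. No p-value was computed. Some marker genes are not reported here.

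The members, lists and motifs were chosen with earlier results of these data known. Genes given in full are the called ones, those at 1.25-fold or 0.8-fold with an interval off 1, the 10 highest levels, up to 3 of each list with the most reads, and others that the values made worth naming, chosen after these were seen. Tested on simulated data with Poisson error, the rule called 54.0% of 50 genes at a true 2-fold, 98.0% of 50 at 3-fold and 0.584% of 8050 unchanged genes. The simulation held no variation between cultures, so 0.584% is not the share of false calls in these libraries. Alternatives were the TMM factor of edgeR 4.0.16, the size factor of DESeq2 1.42.0, all junction reads, single introns, and other minimums, folds and intervals. Work ran in Python 3.11.15 (numpy 2.4.6, scipy 1.17.1, pandas 2.3.3, matplotlib 3.10.9) and R 4.3.3.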

Additional observations from a re-analysis of the deposited data

How the results depend on the processing

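The counts of 2 higher and 4 lower genes were the same with the TMM factor, the DESeq2 size factor, all junction reads as the total, shared introns counted too, a minimum of 10 reads, and without introns read in 1 library only (added after the data were seen). With the intron with the most reads alone, 0 were higher and 1 lower, Trim47, which is not among the 4. Without that intron 1 was higher (Trim34b) and 1 lower (Usp37). With a minimum of 100 reads the counts were 0 and 0. A fold of 1.5 gave 7 higher and 6 lower, a fold of 3 gave 2 and 1 (Trim45), and a 99% interval gave 1 (Trim34b) and 2 (Trim45 and Usp37). The shares of all measured genes called at these folds and this interval were not computed, so these counts have no background beside them. With Trim34a and Trim34b as 1 gene, added after the data were seen, 1 was higher (Usp53) and 3 lower. Single introns and higher minimums leave fewer reads or genes by construction, and other causes were not tested. The median log2 ratio ranged from -0.02 to 0.05, and called junctions stayed at 0 under each splicing alternative. Of 47 genes checked singly, 19 moved beyond their interval on the most-read intron alone and 2 without it, and 0 changed sign while called. The check left out some genes described above, among them Usp34, Usp11, Trim21, Trim23 and Trim68. Genes that are not called did change sides. On the most-read intron alone Usp24 had a ratio of 0.775, Usp25 of 0.934 and Trim37 of 1.28. Each lay on the other side of equality from the whole gene, whose interval excluded 1. No paired analysis was possible because each group has 1 library.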
